A study of Homo sapiens with 14 samples.

Results

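The regions bound by the NF-κB subunit p52 in L1236 cells are described here from a table of chromatin immunoprecipitation sequencing (ChIP-seq) calls. L1236 is an established line of Hodgkin lymphoma cells, in which NF-κB is active without stimulation. All libraries came from this 1 line. Of the 14865 union regions, in which overlapping calls for p50, p52, RelA and RelB had been joined, the 10893 with a p52 summit (73.3%) were taken as p52 regions, and the 3972 others served as a comparison. The background was 6 libraries of input DNA. The 2 p52 libraries were made with different antibodies, a mouse monoclonal (Millipore #05-361) for replicate 1 and a rabbit polyclonal (Millipore #06-413) for replicate 2, whereas p50, RelB and RelA each had 1 antibody for both replicates.

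p52 is the DNA-binding product of NFKB2. The gene encodes the precursor p100, which holds Rel proteins, RelB above all, in the cytoplasm through its ankyrin repeats. In the non-canonical pathway, receptors such as CD40 stabilise the kinase NIK, IKKα phosphorylates p100, and the proteasome removes its inhibitory part, by which p52:RelB dimers reach the nucleus. p52 has a Rel homology domain and no transactivation domain of its own, so its dimers depend on a partner such as RelB or the nuclear IκB protein BCL3 for activation. κB sites, the DNA elements these dimers bind, begin with a run of G and end with a run of C on the same strand.

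Promoter sequence was available for 31 of the 37 listed genes whose transcription start site (TSS) lay inside a p52 region, and 15 of these genes held the word GGGNNNTTCC, a simple form of the κB site in which N is any base, on either strand. The windows of genes of the NF-κB system itself, and of TNFRSF9, are printed with the word in capitals because these genes held a p52 region over a TSS and are described further on. The genes were matched by symbol, so a printed start need not be the one under the region, and the first and second NFKB2 windows lay outside it. The windows read 5′ to 3′ on the strand of the gene and were copied from RefSeq promoters on GRCh38.p14. A word on the opposite strand therefore appears as GGAANNNCCC, and neighbouring windows of 1 promoter share bases.
NFKBIA, chr14:35404811-35404840, minus strand: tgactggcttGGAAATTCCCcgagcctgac
NFKB2, the second RefSeq start, chr10:102394462-102394491, plus strand: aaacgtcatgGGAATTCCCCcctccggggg
NFKB2, the second RefSeq start, chr10:102394490-102394519, plus strand: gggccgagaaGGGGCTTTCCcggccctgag
NFKB2, the third RefSeq start, chr10:102395674-102395703, plus strand: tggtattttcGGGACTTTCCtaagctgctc
BIRC3, chr11:102317275-102317304, plus strand: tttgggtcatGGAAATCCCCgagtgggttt
TNFAIP3, chr6:137867182-137867211, plus strand: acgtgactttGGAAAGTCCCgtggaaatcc
TNFAIP3, chr6:137867194-137867223, plus strand: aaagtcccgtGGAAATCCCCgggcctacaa
REL, chr2:60881517-60881546, plus strand: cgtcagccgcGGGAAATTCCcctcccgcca
TNIP1, chr5:151081057-151081086, minus strand: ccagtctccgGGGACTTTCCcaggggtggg
NFKB1, chr4:102501300-102501329, plus strand: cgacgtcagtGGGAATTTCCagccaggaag
TNFRSF9, chr1:7940894-7940923, minus strand: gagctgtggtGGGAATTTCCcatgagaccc

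In these windows the capitals began 81 bases before the start for NFKBIA, 199 for BIRC3, 47 for REL, 49 for NFKB1, 42 for TNIP1 and 74 for TNFRSF9. TNFAIP3 held the word at positions -67 and -55. Among all 35116 RefSeq promoters of the same length (250 bases before to 50 bases after a start), 2289 (6.52%) held GGGNNNTTCC, and counted per gene 2139 of 27305 (7.83%) did. Of the genes with a symbol and a RefSeq promoter whose TSS lay inside a p52 region, 37 of 181 (20.4%) held it, against 18 of 87 (20.7%) with the TSS inside a union region without a p52 call. The narrower word GGGNNTTTCC, whose matches are all matches of GGGNNNTTCC too, was found in 21 of the 181 (11.6%) and in 3 of the 87 (3.45%), against 635 of all 27305 genes (2.33%). GGGANNTTCC, likewise a narrower form of GGGNNNTTCC that can overlap the previous word, was found in 17 of the 181 (9.39%), in 5 of the 87 (5.75%) and in 537 of all 27305 genes (1.97%). The genes with a symbol are those the study put into its gene tables and are not a random sample of genes, and the matches are a description of letters, not of sites.

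In the p52 regions the merged p52 libraries were enriched over input by 2.59-fold to 117.0-fold, with quartiles of 12.3, 17.2 and 27.0. This fold enrichment is the ratio of ChIP to input at the summit as called by MACS. The pileup, the number of p52 fragments covering the summit, ran from 18 to 347 with quartiles of 38, 54 and 87. The number of p52 reads in a region had a median of 100 and a range of 22 to 4821. Per kb of region width the quartiles were 81.3, 111 and 163 reads, with a range of 25.9 to 1490. The regions were 273 to 8787 bp wide, with a median of 905 bp. Because the deposited values are from merged replicates, they have no replicate error, and every interval given here is a 95% interval over regions that covers counting error only.

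Regions without a p52 call still held p52 reads. Their quartiles were 31.5, 43.9 and 60.6 reads per kb, with a maximum of 359. Of these 3972 regions, 413 (10.4%) lay above the lower quartile of the p52 regions, and 131 (3.30%) lay above their median. Conversely, 840 p52 regions (7.71%) lay below the upper quartile of the regions without a call. Of the 1810792 p52 reads in all union regions, 1643100 (90.7%) lay in the p52 regions.

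The 2 signal values, a score per replicate that entered the reproducibility analysis, are the only p52 values in the table that were not merged. Which value belongs to which antibody is not stated, so they are called the first and the second. The first value had a median of 215 (range 53.6 to 4467) and the second a median of 416 (range 91.0 to 7146), and the first was the higher of the pair in 992 of 10893 regions (9.11%). On the log2 scale the ratio of first to second had quartiles of -1.43, -0.98 and -0.50, an SD of 0.73 over regions and a range of -3.73 to 1.91. Ranks of the regions by the first and the second value gave a Spearman correlation of 0.77 across regions. This is a description of regions that had passed a reproducibility filter on these values. The 1000 regions with the highest first value and the 1000 with the highest second value had 735 in common (73.5%), and the top 100 of each had 63. The second value followed the merged fold enrichment more closely (Spearman 0.92) than the first did (0.84), and the same held for the pileup (0.94 and 0.87).

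**Figure D1:**
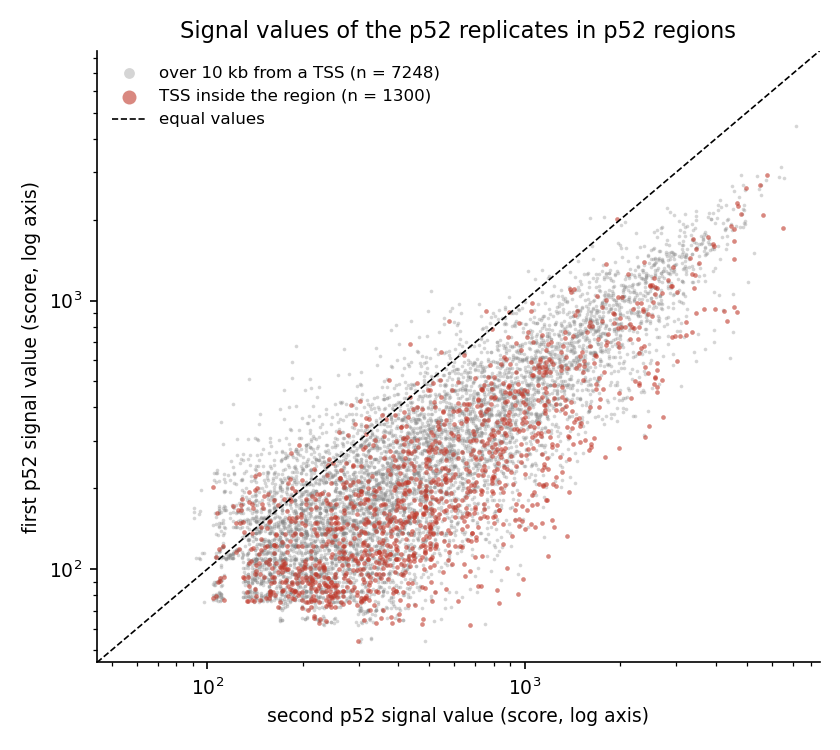
Each point is a p52 region, with the second p52 signal value on the horizontal axis and the first on the vertical axis, both as scores on log axes; grey points lie over 10 kb from a TSS (n = 7248), red points hold a TSS (n = 1300), and the dashed line marks equal values. Most points lie below the line, and the first value was higher in 992 of all 10893 regions.

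Within 4 equal groups of the p52 regions by fold enrichment, cut at the quartiles and taken from the lowest to the highest, the Spearman correlation of the signal values was -0.03, 0.01, 0.23 and 0.71. The merged fold contains both replicates, and a narrow band of it lowers such a correlation by construction. The groups span bands of different width, so these 4 values are comparable neither with each other nor with the one over all regions. Across the same groups the median log2 ratio of the first to the second value went from -0.73 through -0.93 and -1.01 to -1.14, and the share of regions with the higher first value from 12.95% to 2.24%.

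The ratio also differed with position. Where the TSS of a gene lay inside the region (n = 1300) its median was -1.31 (interval -1.36 to -1.25), and the first value was the higher in 58 regions (4.46%). Where the closest TSS was farther than 10 kb (n = 7248) the median was -0.92 (interval -0.94 to -0.91), and the first value was the higher in 733 regions (10.1%). The medians of the values themselves were 180 and 471 at a TSS, and 223 and 409 farther than 10 kb. Over all widths, regions at a TSS thus had the lower first value and the higher second value. The difference in the ratio was present in each of the 4 groups by fold enrichment, with medians of -1.001, -1.35, -1.41 and -1.45 at a TSS against -0.69, -0.86, -0.94 and -1.09 farther than 10 kb. Regions at a TSS were wider (median 1562 against 834 bp), and in the 4 groups cut at the quartiles of width, from the narrowest, the medians were -1.19, -0.97, -1.20 and -1.37 at a TSS against -0.74, -0.91, -0.98 and -1.13 farther than 10 kb. In the second of these groups the intervals overlapped (-1.20 to -0.73, n = 79, and -0.94 to -0.86). Both values themselves had the lower median at a TSS in each group by width, with 518 against 875 for the second value in the widest. In the groups by fold the second value had the higher median at a TSS except in the highest (1318 against 1443).

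For p50, whose replicates shared 1 antibody, the median log2 ratio of its own signal values was -0.04 (interval -0.07 to 0.01) in the 2351 p50 regions with a TSS and 0.29 (interval 0.27 to 0.32) in the 6225 farther than 10 kb. The gap between the positions was thus -0.33 for p50 and -0.38 for p52. For RelB the medians were -0.89 (n = 634) and -0.77 (n = 2513), with overlapping intervals. The replicate ratio thus differed with position for p50 as well. Which replicate gave the first value is not stated for any subunit, so the signs of these gaps cannot be compared between subunits. The part of the antibody in the p52 ratio was not tested. The correlation of the signal values was lower for p50 (Spearman 0.71 over 10975 regions) and for RelB (0.46 over 3984) than for p52. Each was taken over a different set of regions that had passed its own reproducibility filter. They therefore do not compare the agreement of the antibodies.

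**Figure D2:**
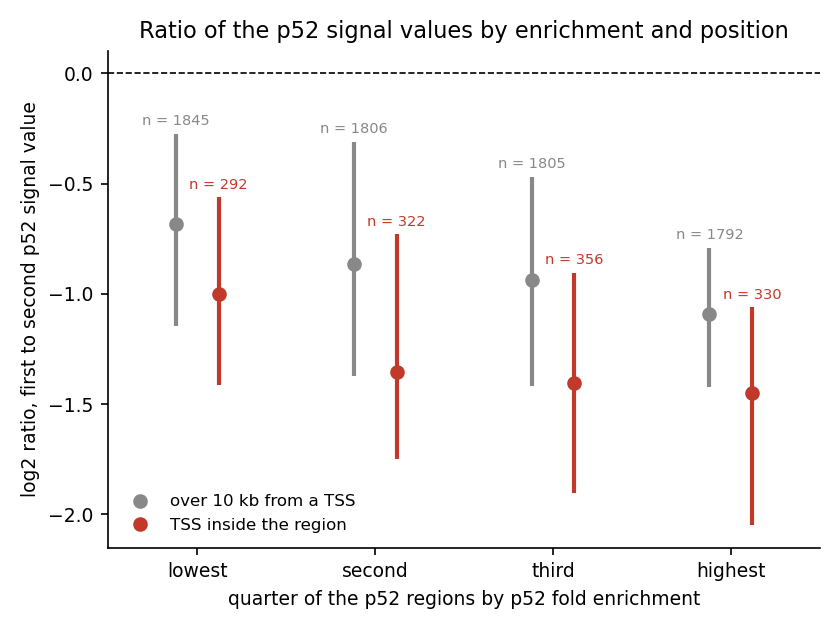
The vertical axis gives the log2 ratio of the first to the second p52 signal value, and the horizontal axis the 4 groups of p52 regions cut at the quartiles of fold enrichment; points are medians, bars run from the lower to the upper quartile over regions, grey is over 10 kb from a TSS and red has the TSS inside. In each group the red median lies below the grey one, from -1.001 against -0.69 in the lowest to -1.45 against -1.09 in the highest.

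The regions with the most extreme ratios were of moderate enrichment. A region at chr2:112179781-112180511 (hg18), 178 kb from the TSS of ANAPC1, which encodes the largest subunit of the anaphase-promoting complex, had a first value of 511 and a second of 136, at a fold of 17.3. In a region inside PAG1, the gene of a transmembrane adaptor of Src kinase regulation, the values were 680 and 191 at a fold of 19.3. At the other end, a region at chr10:134593466-134594176 had 95.6 and 1268 at a fold of 33.1. In none of the 10 regions with the highest fold was the first value the higher, near the 2.24% of all regions above the upper quartile of fold.

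Most p52 regions were distal. The TSS lay inside 1300 regions (11.9%, interval 11.3 to 12.6), within 1 kb of a further 348 (3.19%) and 1 to 10 kb away in 1962 (18.0%). It was 10 to 100 kb away in 5255 regions (48.2%, interval 47.3 to 49.2) and over 100 kb in 1993 (18.3%), and 35 regions had no TSS within 1 Mb. The union regions without a p52 call held a TSS in 1147 of 3972 cases (28.9%, interval 27.5 to 30.3) and lay 10 to 100 kb away in 33.1%. Their smaller share of distal regions included fewer inside genes: farther than 10 kb from a TSS and touching a gene were 32.7% of the p52 regions (interval 31.8 to 33.5) and 19.9% of the others (interval 18.7 to 21.2). Since 83.9% of the others carried a p50 call, this comparison is in the main one of p52 regions with p50 regions that lack p52. For 2143 p52 regions (19.7%) the closest gene and the gene of the closest TSS were different ones.

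**Figure D3:**
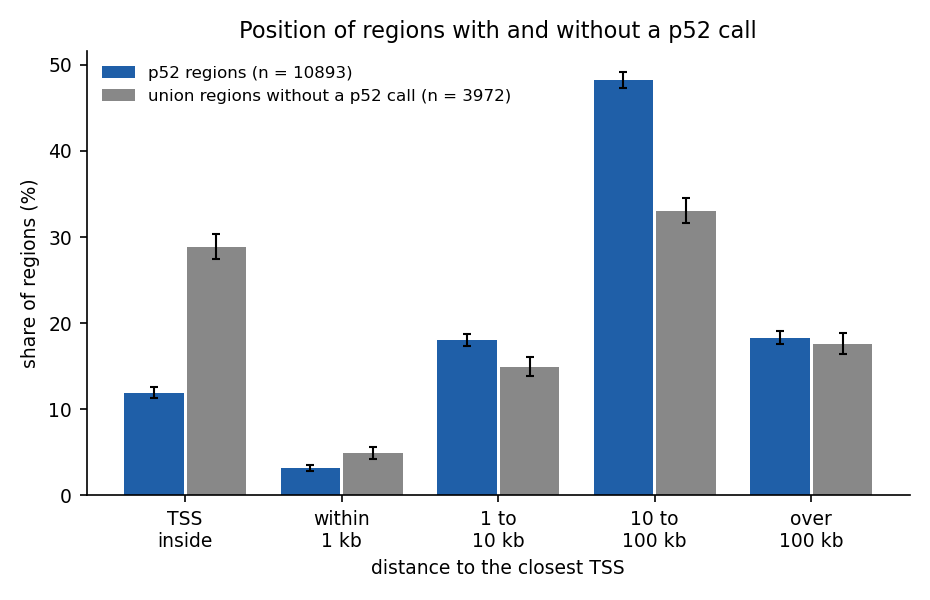
Bars give the share of regions in percent, from 0, in each class of distance to the closest TSS, for the 10893 p52 regions in blue and the 3972 union regions without a p52 call in grey; error bars are Wilson 95% intervals over regions. The share with the TSS inside is 11.9% against 28.9%, and the share at 10 to 100 kb is 48.2% against 33.1%.

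Over all widths the p52 fold at the summit had similar medians at every distance, whereas within each of 4 groups by width its median was lower at a TSS. The median fold was 17.8 with the TSS inside, 15.7 within 1 kb, 17.5 at 1 to 10 kb, 17.2 at 10 to 100 kb and 16.9 beyond. At a TSS against farther than 10 kb the log2 ratio of the median folds was 0.05 (interval -0.01 to 0.14), and the median input level at the summit, pileup divided by fold, was 3.05 and 3.09. The reads per kb differed in the other direction, with medians of 85.4 at a TSS and 116 farther than 10 kb. In these groups, from the narrowest, the median fold was 11.8, 13.9, 15.7 and 19.6 at a TSS against 13.3, 16.5, 21.3 and 27.4 farther than 10 kb, with intervals that overlapped in the narrowest group, where 30 regions held a TSS. The reads per kb were lower at a TSS in each of these groups too, with medians of 101, 86.1, 84.7 and 84.9 against 108, 111, 121 and 144. Over all widths the first and the second signal value gave log2 ratios of -0.31 and 0.20, so that the direction there depended on the replicate. Within each of the 4 groups by width both values had the lower median at a TSS. For the second these were, from the narrowest, 245, 309, 404 and 518 at a TSS against 254, 388, 578 and 875 farther than 10 kb.

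Relative to p50, p52 was lower at TSS and higher at distal regions. A p50 call was present in 7643 of the p52 regions (70.2%), against 73.8% of all union regions. In 1238 of the 1300 p52 regions with a TSS (95.2%) p50 was called as well, and in 64.9% of those farther than 10 kb. In the shared regions the median log2 ratio of p52 fold to p50 fold was -0.32 with the TSS inside, -0.13 within 1 kb, 0.12 at 1 to 10 kb, 0.22 at 10 to 100 kb and 0.28 beyond. In the 7284 shared regions whose summits were at most 250 bp apart the medians were -0.33 (interval -0.38 to -0.29, n = 1113) at a TSS and 0.24 (interval 0.22 to 0.26, n = 4542) farther than 10 kb. p52 had the higher fold in 301 of the first (27.0%) and in 2939 of the second (64.7%). These folds come from different antibodies, and their ratio cannot be read as a ratio of bound molecules. Replicate error for it was not available.

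The p52 fold was higher where more of the other subunits were called, except with RelB and RelA together in the absence of p50. Its median was 12.5 in the 2936 regions with p52 alone, 14.7 in the 287 with RelB, 17.5 in the 4732 with p50, 29.2 in the 2539 with p50 and RelB, and 39.2 in the 349 with all 4 subunits. RelB, the main partner of p52 in the non-canonical dimer, was called in 3200 p52 regions (29.4%, against 26.8% of all union regions), and RelA in 399 (3.66%, against 3.31%). Only 10.6% of the p52 regions below the lower quartile of fold carried RelB, while 62.0% of those above the upper quartile did. The strength of a region for any subunit and the presence of the other calls cannot be told apart here. Across shared regions the Spearman correlation of p52 fold was 0.57 with p50 fold, 0.51 with RelB fold and 0.46 with RelA fold, a description over regions that share the input libraries. Shared summits lay close together, within 250 bp in 95.3% of regions for p50, 92.1% for RelB and 89.0% for RelA.

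**Figure D4:**
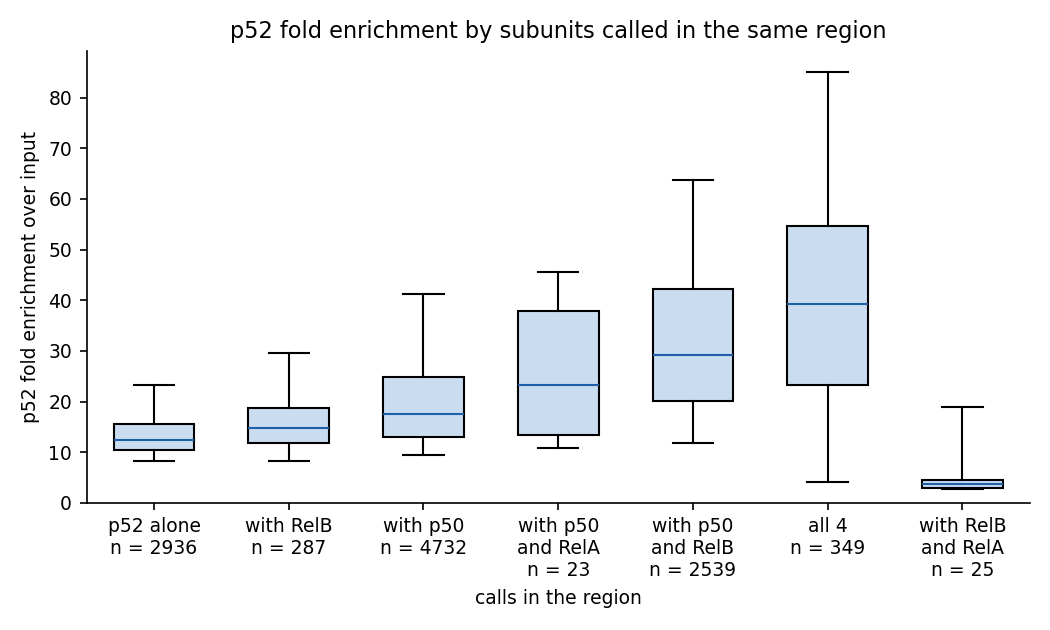
Boxes give the p52 fold enrichment over input (vertical axis, from 0) of regions grouped by the other subunits called there; lines are medians, boxes quartiles and whiskers the 5th and 95th percentiles over regions. Medians go from 12.5 for p52 alone to 39.2 with all 4 subunits, and the 25 regions with RelB and RelA but no p50 have a median of 3.74.

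The regions with p52, RelB and RelA but without p50 stood apart. Their median fold was 3.74, whereas their median of 170 reads per kb was as high as that of regions with p50 and RelB (167). Of these 25 regions, 15 belonged to the 42 p52 regions (0.386%) of high input level, in which pileup divided by fold exceeded 5 times the median of all p52 regions. In these 42 the median fold was 3.56, the median pileup 72 and the median input level 21.5. RelB was called in 41 of them, RelA in 39 and p50 in 24, and 1 had a TSS inside. Chromosomes 16, 10 and 2 held 20 of the 42. Of the 54 p52 regions with a fold below 5, 41 were of this kind. They led the list by reads per kb: chr1:121185486-121187111 had 2423 p52 reads, or 1490 per kb, at a fold of 4.97, and chr6:58884033-58887415 had 4821 reads, or 1425 per kb, at a fold of 4.89. Without the 42 regions the share of p52 regions with RelA was 3.32%.

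The 10 regions with the highest folds lay at a TSS or far from one about as often as all p52 regions. The first was a region 7154 bp upstream of the TSS of TYK2, a Janus kinase of cytokine receptors, at chr19:10357268-10358532, with 574 p52 reads, a pileup of 268, a fold of 117.0 and signal values of 2059 and 5593. Among the 10 highest, 2 held a TSS, that of JUNB (fold 102.0) and that of NFKBIA (fold 101.0), against 11.9% of all p52 regions. Farther than 10 kb were 6, against 66.5% of all p52 regions. All 10 carried p50 and RelB calls and 6 carried RelA, against 70.2%, 29.4% and 3.66% of all p52 regions. Outside the regions of high input level, the most reads per kb were found at chr11:115300525-115301945, 420 kb from any TSS, with 1617 reads, or 1138 per kb, a fold of 76.2 and the highest pileup, 347. Next came a region 10101 bp upstream of ACTB, the cytoplasmic β-actin gene, with 1794 reads and a fold of 77.5. CXCR5, the chemokine receptor that guides B cells into follicles, had 783 reads and a fold of 44.2 in a region 41584 bp upstream.

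Genes were examined in 10 lists of NF-κB components, lymphoid genes and controls, 104 genes in all, of which 77 could be joined to an identifier and 66 had a union region assigned as closest gene or closest TSS. Of the 66, 65 had a p52 region, against 77.5% of all 8450 identifiers in the table and 83.8% of the 1136 with a symbol. The TSS lay inside a p52 region for 37 of them, against 15.4% and 21.9%. The 11 identifiers to which no union region was assigned included TNF, BIRC5 and BAX. This does not show that no region lay over or near these genes. A region that covers several genes is assigned only to its closest gene and closest TSS. The lists were drawn up with earlier results of these data known, and much of their content is what the study itself followed up. The 275 p52 regions of these genes had a median fold of 22.6, and 173 of them were above 17.2, the median of all p52 regions. In 15 of the 275 the first signal value was the higher, against 9.11% of all p52 regions. In none of the 37 over a TSS was it the higher, near the 4.46% of all p52 regions with a TSS.

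**Figure D5:**
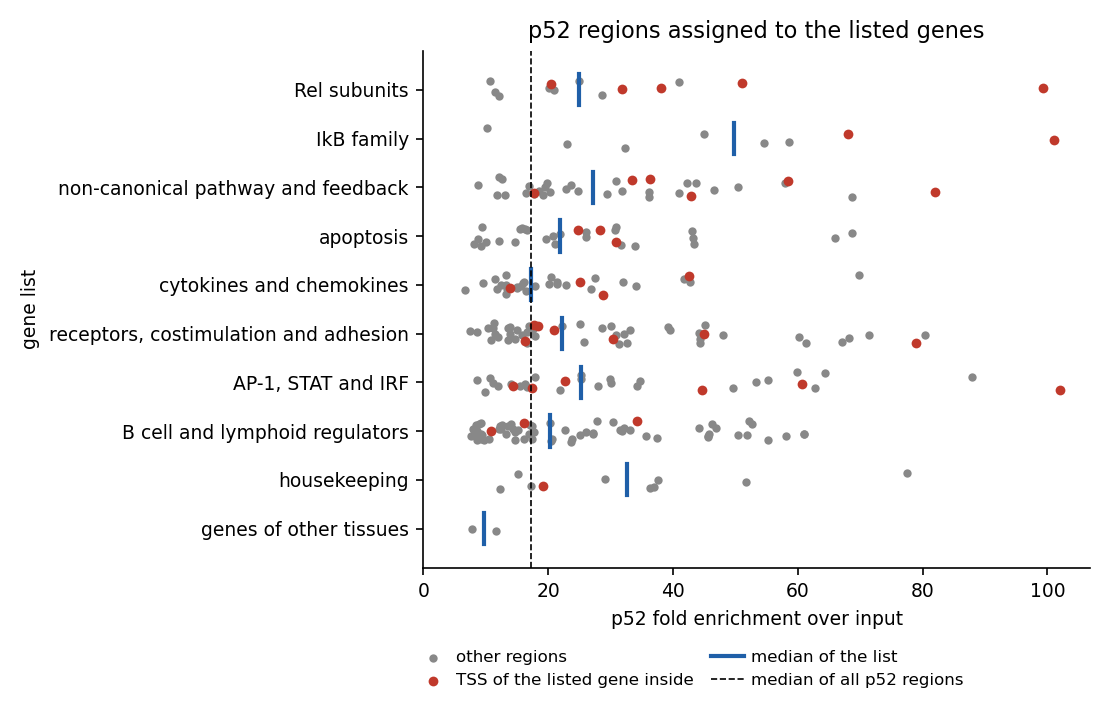
Each point is a p52 region assigned to a listed gene, placed by p52 fold enrichment over input on the horizontal axis and by gene list on the vertical axis, with red for regions that hold the TSS of a gene, a blue bar for the median of the list and a dashed line for the median of all p52 regions, 17.2. The list medians run from 9.76 for genes of other tissues to 49.7 for the IκB family.

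By the deposited distances, all 5 genes of the Rel subunits held a p52 region over the TSS. The starts of NFKB2 and RELB given in the primer list of the study lay upstream of these regions, outside them. NFKB2, which encodes p52 itself, had a single region, chr10:104143410-104146372, with 1152 reads, a pileup of 227, a fold of 99.2 and signal values of 1853 and 4552. RELB, the partner, had a fold of 51.1 (signal values 931 and 2187), REL, which encodes c-Rel, 38.1 (598 and 3026), RELA, which encodes the canonical activator p65, 31.8 (242 and 937), and NFKB1, which encodes p105 and p50, 20.5 (393 and 444). NFKB1 was the weakest of the 5 at its TSS and the one where the signal values came closest, with a log2 ratio of -0.18, while REL had -2.34. At NFKB1 the p50 fold of 36.1 was above the p52 fold, and at NFKB2 the folds were 91.0 for p50 and 99.2 for p52. REL had 3 further regions, the strongest 33008 bp upstream with a fold of 41.0.

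In the NFKB2 region the p52 summit did not lie at the first cluster of κB words. The amplicon used for NFKB2 by the study was matched by both primers to the promoter of the second RefSeq start, where it spanned positions -164 to -66 and held the words of the first and the second NFKB2 windows printed above. Its reverse primer, ccgggaaagccccttct, itself covers the word GGGGCTTTCC of the second window. In hg18 the amplicon ended 151 bp before the p52 region began, and the p52 summit lay 988 bp past its end. The third window, before the next RefSeq start, begins 1184 bases downstream of the second in GRCh38. No coordinate was carried from 1 build to the other, and the sequence under the summit was not analysed here. At NFKBIA the p52 summit fell inside the amplicon at chr14:34943791-34943873, 14 bp from its upstream end, and the printed NFKBIA word was not in that amplicon. In the RefSeq promoter that amplicon spanned positions -159 to -85, and the word began at -81.

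The IκB family had the highest list median, 49.7 over 8 regions of 3 genes. NFKBIA, which encodes the inhibitor IκBα, had 1626 p52 reads, a pileup of 298, a fold of 101.0 and signal values of 1860 and 6531 over its TSS, and a second region 10801 bp upstream with a fold of 23.1. BCL3, the nuclear IκB protein that binds p52 and p50 homodimers, had 5 regions, with folds of 68.0 at the TSS and 58.5, 54.5, 44.9 and 10.2 elsewhere. The 4 stronger ones shared p50 and RelB calls, and the weakest was called for p52 alone. NFKBID, another nuclear IκB gene, had 1 region with a fold of 32.3 inside the gene, 1362 bp from the TSS.

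Regulators of the non-canonical pathway and of feedback had 34 regions in 7 genes, with a median of 27.2. BIRC3, which encodes the ubiquitin ligase cIAP2 that keeps NIK low, had a fold of 81.9 over its TSS, with 504 reads and signal values of 933 and 3980. BIRC2, which encodes the related cIAP1, had 17.7 (116 and 484). TNFAIP3, which encodes the deubiquitinase A20 that ends NF-κB signalling, had 17 p52 regions over 233 kb, with folds of 8.78 to 68.6, the highest 5721 bp into the gene and 58.4 over the TSS. Its partner TNIP1 had 33.4 over the TSS and 50.3 at a region 3552 bp upstream. TRAF1, an adaptor of TNF receptors, had 5 regions, of which the one over the TSS had a fold of 42.8 and the lowest ratio, with signal values of 342 and 2463, while the region 1597 bp downstream had 57.9 with 1630 and 2995. CD40, a receptor that feeds the pathway, had 36.3 over the TSS and 31.8 at a region 11234 bp downstream, where the first value, 1034, was above the second, 890. CHUK, the gene of IKKα, had a fold of 36.1 in a region 8522 bp upstream.

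Genes of cell survival and death had 29 p52 regions, with a median of 21.9. CFLAR, which encodes the caspase-8 inhibitor c-FLIP, reached 68.7 at 12671 bp downstream of its TSS and 24.8 over it. BCL2L1, the gene of Bcl-xL, reached 66.0 at 4490 bp downstream and 28.3 over the TSS. BCL2A1 had 43.4, with signal values of 1041 and 1000, the pro-apoptotic BCL2L11 had 43.2, and BCL2 had 43.0 at a distance of 157823 bp. For each of these genes the highest fold was thus outside the TSS.

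Cytokine and chemokine genes had 32 regions, with a median of 17.2, close to that of all p52 regions. CSF2, which encodes GM-CSF, had 69.8 at 8429 bp downstream and 13.9 over the TSS. LTA, the gene of lymphotoxin α, had 42.8 at 2728 bp upstream and 25.02 over the TSS, and EBI3, which encodes a chain of IL-27 and IL-35, had 42.5 over its TSS. The 12 regions of IL6 lay 1720 to 92982 bp upstream, with folds of 6.60 to 34.1. Of the chemokines by which Hodgkin lymphoma cells attract T cells, CCL17 had 41.7 in 1 region and CCL22 had 15.7 and 11.7 in 2. The CCL22 region 9093 bp upstream was an exception in its signal values, 242 and 158.

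Receptor, costimulation and adhesion genes had 51 regions, with a median of 22.3. CCR7, the homing receptor of lymphocytes, had 10, with folds of 80.3 at 32323 bp upstream, 61.2 at 11820 bp upstream and 16.3 over the TSS. CD70, the ligand of CD27, had 78.9 over its TSS, with 440 reads and a p50 fold of 78.4. IL2RA had 71.4 inside the gene, 10516 bp from the TSS, IL21R had 68.2 at 46791 bp, and CD80 had 67.0 at 2633 bp upstream. TNFRSF9, whose window is printed above, had 44.9 over its TSS, and ICAM1 had 30.3.

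Among AP-1, STAT and IRF genes the median was 25.2 over 31 regions. JUNB, an AP-1 gene strongly expressed in Hodgkin lymphoma, had neighbouring regions with folds of 87.8 (chr19:12760184-12762882) and 102.0 (chr19:12762930-12766215). The second had a p50 fold of only 9.35, and its log2 ratio of p52 to p50 fold, 3.45, was the highest of all 7643 shared regions. The reads did not differ in that way, with 891 for p52 and 875 for p50. The p50 summit lay 2213 bp from the p52 summit, so the folds there were taken at different places of a wide region. In the first JUNB region, with summits 16 bp apart, p50 had a fold of 62.9. JUN reached 64.3 at 228688 bp upstream, BATF 62.8 at 24439 bp upstream and IRF5 60.7 over its TSS.

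Regulators of B cells and lymphoid cells had 65 regions, with a median of 20.4. TCF7 and BCL6, the latter the repressor of the germinal centre, reached 60.9 each, ETS1 58.1 and TCF3, which encodes E2A, 55.3. PAX5, which defines B cell identity, had 7 regions of 16.1 to 50.3, none over its TSS. FOXP1 had 16 and ETS1 20 regions. LEF1 had 1, with a fold of 10.9.

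Housekeeping genes were not free of p52 regions. Of the 10 listed, 6 had an identifier, 4 a union region and 3 a p52 region. The 10 regions of these 3 genes had a median fold of 32.7, above that of every list but the IκB family. Of these regions, 7 were above the median of all p52 regions. ACTB had 5, with folds of 15.2 to 77.5, all upstream of the gene, and B2M, the gene of the MHC class I light chain, had 4, with 19.1 over the TSS and up to 36.3. ATP5B had 1 with a fold of 12.3. ALDOA had 2 union regions and no p52 region. Of the genes of other tissues, APOA1 had 1 region with a fold of 7.84 and APOB 1 with 11.7, both below the median of all p52 regions. To 6 of the other identifiers no region was assigned.

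The study chose regions from the same ChIP-seq data for its qPCR amplicons, so their overlap with p52 regions is not independent of the calls. Amplicons at ACTB, at POR and downstream of NFKBIA served it as references, which the study called non-recruiting. The ACTB amplicon lay in a union region, one without a p52 call. Of the other amplicons, those of NFKB2 and RELB overlapped no union region and lay 151 and 330 bp from the nearest p52 region. Of the 24 amplicons of the study's primer list, 18 overlapped 17 p52 regions, and in 17 of the 18 the p52 summit was within 250 bp of the amplicon. The exception was the BCL3 amplicon printed here, at 1359 bp from the summit of its region. The folds of these regions ran from 11.7 (CCL22) to 102.0 (JUNB). The primer pairs of some of the strongest are printed, as sense primer and then reverse primer in lower case.
JUNB, chr19:12765301-12765393 (hg18), sense: atctccagggttggatggtt
JUNB, reverse: cctgcgcactccaagtct
CD70, chr19:6542118-6542207, sense: ctcgccaattgctcaagtcc
CD70, reverse: cgtctacttgcttcaacctg
IL2RA, chr10:6133140-6133254, sense: gctgcatgcgtgacatctcg
IL2RA, reverse: aggaccggaagcagagacca
BCL3, chr19:49942353-49942434, sense: gggacacagagacagcaaca
BCL3, reverse: aacttgcctgacctccctct

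Some genes gathered many p52 regions. Of the 6552 identifiers with a p52 region, 3760 had 1, 2792 had 2 or more, 501 had 5 or more and 52 had 10 or more. ETS1, a lymphoid transcription factor, had 20 regions over 370 kb with folds of 7.63 to 58.1, of which 8 carried p50. PTGER4, a prostaglandin receptor gene, had 19 over 464 kb, and TNFAIP3 and ITPKB, an inositol phosphate kinase gene of lymphocytes, had 17 each. KCNMA1, GATA3, BHLHE40 and FOXP1 had 16 each, with maximal folds of 56.5, 44.0, 56.9 and 44.2. The number of regions of a gene depends on the stretch of genome to which it is the closest gene. Neighbouring p52 summits were a median of 60973 bp apart, and 2509 of the 10869 gaps (23.1%) were at most 10 kb. In 71 places at least 5 p52 regions followed each other in steps of at most 10 kb, and these held 402 regions. The longest such series had 13 regions over 51.0 kb at ITPKB (chr1:224907225-224958242), with a median fold of 17.3 and a maximum of 40.0. The next had 10 over 34.0 kb at LMNA, the lamin A gene, with a median of 13.7 and a maximum of 52.5. A series of 7 on chromosome 16 had a median of 3.31 and a maximum of 4.23, and regions of high input level were among its members.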

How the data were processed

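ChIP-seq was done on L1236 cells. Reads were aligned by the authors with Bowtie (hg18, unique hits only), freed of duplicates with SAMtools and sampled to a common library size. MACS was run on the single replicates, whose concordance was scored by the irreproducible discovery rate (IDR), and once more on the merged replicates for the final calls. CASAVA is also named in the submitters' processing notes. Versions are not given in the sources used here. The authors deposited 1 table of union regions. Its deposited counts are whole reads per region, not normalized, and it is not stated if the size reduction came before them. The deposited fold enrichment is a ratio to input at the summit, the deposited pileup a coverage signal, the deposited IDR a fraction, the deposited FDR a q-value, and the deposited signal values a score per replicate of unstated scale. The authors set both thresholds at 0.05, while every p52 IDR in the table was below 0.01. The deposited distances reach up to 1 Mb and refer to an Ensembl annotation of hg18.

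Reads per kb, log2 ratios, input levels (pileup over fold) and the positions were computed for the 10893 p52 regions and, as a comparison, the 3972 without a p52 call. The sign and size of the deposited TSS distances were checked against the gene starts of the primer list, and 58 of 58 signs and 57 sizes (within 2 bp) agreed, the exception being a RELB region with 14598 bp deposited and 15098 bp from the listed start. Regions with the TSS inside were not part of this check. No test was made, since values from merged replicates leave no replicate error and regions are not replicates; shares have Wilson intervals and medians order-statistic intervals, which were tested on simulated data. Symbols were joined by Ensembl identifier from the study's gene tables (1136 of 8450 identifiers), since the RefSeq gene table matched none. Promoters are RefSeq, GRCh38.p14, up to several starts per gene; a gene held a word where any of its promoters did, and sequences on chromosome 8 were not printed. No genome of hg18 was used here, so the sequence of the regions was not analysed. The members, gene lists and words were chosen with earlier results of these data known. Named genes were those of the 10 lists, with values for the strongest regions of each, the 10 highest folds and reads per kb, the most extreme signal ratios, the genes with most regions and the amplicons in p52 regions. The second JUNB region, the NFKB2 summit and the comparison with p50 and RelB signal values were added after the values were seen.

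Alternatives were a stricter IDR (0.01, and 0.001, chosen after seeing the data), an FDR below 1e-05, a fold of at least 5, removal of regions of high input level or wider than 1200 bp, other TSS windows, sharing by summits within 250 bp, other measures of enrichment and other gene assignments. Calculations ran in Python 3.11.15 with scipy 1.17.1, pandas 2.3.3, numpy 2.4.6 and matplotlib 3.10.9. The depth of each library was not used here; the merged p52 counts in the p52 regions, 22 to 4821 reads, set the precision.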

Additional observations from a re-analysis of the deposited data

How the results depend on the processing

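Removing regions wider than 1200 bp had the broadest effect. It lowered the share of p52 regions within 1 kb of a TSS from 15.1% to 7.07%, the share touching a gene from 57.1% to 52.9%, the shares with p50, RelB and RelA to 61.1%, 20.3% and 1.80%, and the Spearman correlation of the signal values to 0.73, and it turned the log2 ratio of median p52 fold at a TSS to farther than 10 kb from 0.05 to -0.12. That ratio was also turned by other measures, to -0.44 with reads per kb and -0.31 with the first signal value, and became 0.20 with the second. The stricter IDR limit of 0.001, a choice made with the data in view, gave a correlation of 0.73 and shares with p50, RelB and RelA of 80.7%, 36.8% and 4.65%, and Pearson's correlation on log10 values was 0.82. Summits within 250 bp gave 66.9%, 27.1% and 3.26%. The RelA share was 3.28% with a fold of at least 5 and 3.32% without the regions of high input level. A TSS window of 5 kb gave 24.8% and the TSS inside the region 11.9%. The cause of these shifts was not tested. The IDR limit of 0.01 removed no region and the FDR limit 1, the number of p52 regions ran from 7736 to 10893 and the number of listed genes with a p52 region from 54 to 65. No paired analysis was possible because the values come from merged replicates and no result comes from a test. Precision is limited by the lack of replicate values, apart from the signal values, and by p52 counts that start at 22 reads per region.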
